A study of Mus musculus with 10 samples.

Results

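The enzymes of the urea cycle and of amino acid breakdown were followed in livers of tumour-bearing mice that either had or had not become cachectic. The members were 43 genes taken from a fixed list of symbols and grouped by the amino acid that each enzyme handles, and all 43 were among the 43629 genes of the count table and among the 14143 genes that passed the filter on low counts. The counts of these genes ranged from 169 to 186939 reads per liver.

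RNA from the livers of 10 male KL mice was sequenced. KL mice are an inducible genetic model of lung cancer that carries Lkb1 flox/flox on a background backcrossed to FVB, and in both groups lung tumours were started in adults of 12 to 20 weeks by intranasal Adenovirus CMV-Cre. The CMV promoter drives Cre in any cell that the virus enters, it was given to the airway, and recombination in the liver was not analysed here. Every mouse of both groups was given the virus. The NCACS group holds 5 non-cachectic mice, numbered 11 to 15, whose weight change was -8 ± 4.64% (SD, n = 5), and the CACS group (cancer anorexia-cachexia syndrome) holds 5 cachectic mice, numbered 16 to 20, whose weight change was -30.6 ± 1.82% (SD, n = 5). The groups were defined by a loss of more than 15% from the peak weight. No mouse without tumour induction stands in the comparison, and food intake was not analysed here.

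The liver disposes of the nitrogen that is released when amino acids are burned or turned into glucose. Transaminases and glutamate dehydrogenase collect amino groups as glutamate and ammonia, carbamoyl phosphate synthetase captures the ammonia in the mitochondrion, and the urea cycle passes it through citrulline, argininosuccinate and arginine to urea. The carbon skeletons are taken apart by pathways that are private to each amino acid, many of them densest in the hepatocytes around the portal vein.

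Total counts per liver ranged from 31459179 to 40746178. Between CACS and NCACS livers, the quasi-likelihood test of edgeR called 538 of 14143 genes at an adjusted p-value below 0.05 (3.8%), 267 of them higher (1.89%) and 271 lower (1.92%) in CACS livers. Albumin transcripts took 4.49 to 8.51% of the counts in NCACS livers and 8.76 to 10.4% in CACS livers. The 10 hepatocyte markers were all detected and summed to 91080 to 130100 counts per 1000000 (CPM) in NCACS and 117200 to 149300 CPM in CACS livers, with 5 of the 10 above and 5 below 0 and a median log2 fold change of -0.002. Without albumin, the other 9 summed to 34290 to 47090 CPM (NCACS) and 35070 to 51700 CPM (CACS). The 12 Kupffer cell and macrophage markers, all detected, summed to 276 to 526 CPM (NCACS) and 183 to 378 CPM (CACS), and all 12 had a log2 fold change below 0. Of these, 1 passed the test. In bulk liver, fewer cells of a type and less RNA per cell cannot be told apart, and the part of these shifts in the values of the amino acid enzymes was not tested.

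NCACS 15 stood apart from its group in genes of the circadian clock, which were looked at after their values were seen. Dbp, a clock output gene, was at 1.27 CPM in NCACS 15 and at 52.1 to 82.9 CPM in the other NCACS livers. Per3 was at 2.5 CPM against 36.5 to 84.9 CPM, and Arntl, which runs in the opposite phase, was at 33.8 CPM against 1.54 to 7.21 CPM. The same liver held the lowest NCACS level of 14 members, Asl, Cps1 and Arg1 among them, and the highest of 7. Without NCACS 15, 4 of the 43 members had an unadjusted p-value under 0.05, beside 20.2% of all genes tested, and no member was called. The log2 fold change without it was 0.88 for Asl, 0.44 for Cps1, 0.33 for Arg1 and -0.53 for Amt. The part of the clock difference in these values was not tested.

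No member passed the adjusted threshold in edgeR's test, against 3.8% of all genes tested. An unadjusted p-value under 0.05 was found for 11 of the 43 members (25.6%), beside 21.6% of all genes tested. Of the 11, 5 were higher in CACS livers (11.3% of all genes) and 6 lower (10.3%). DESeq2 called 2 of the 43 members against 9.8% of all genes tested, namely Asl as higher (4.75% of all genes) and Amt as lower (5.05%), and limma-voom called 0 members and 3.6% of all genes tested. The median log2 fold change of the members was -0.058, with 19 members above and 24 below 0, and that of all genes tested was -0.005. The median absolute log2 fold change was 0.201 for the members and 0.199 for all genes tested. The 95% interval of the log2 fold change lay within 0.5 of 0 for 17 members and within 1 of 0 for 36 members.

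**Figure D1:**
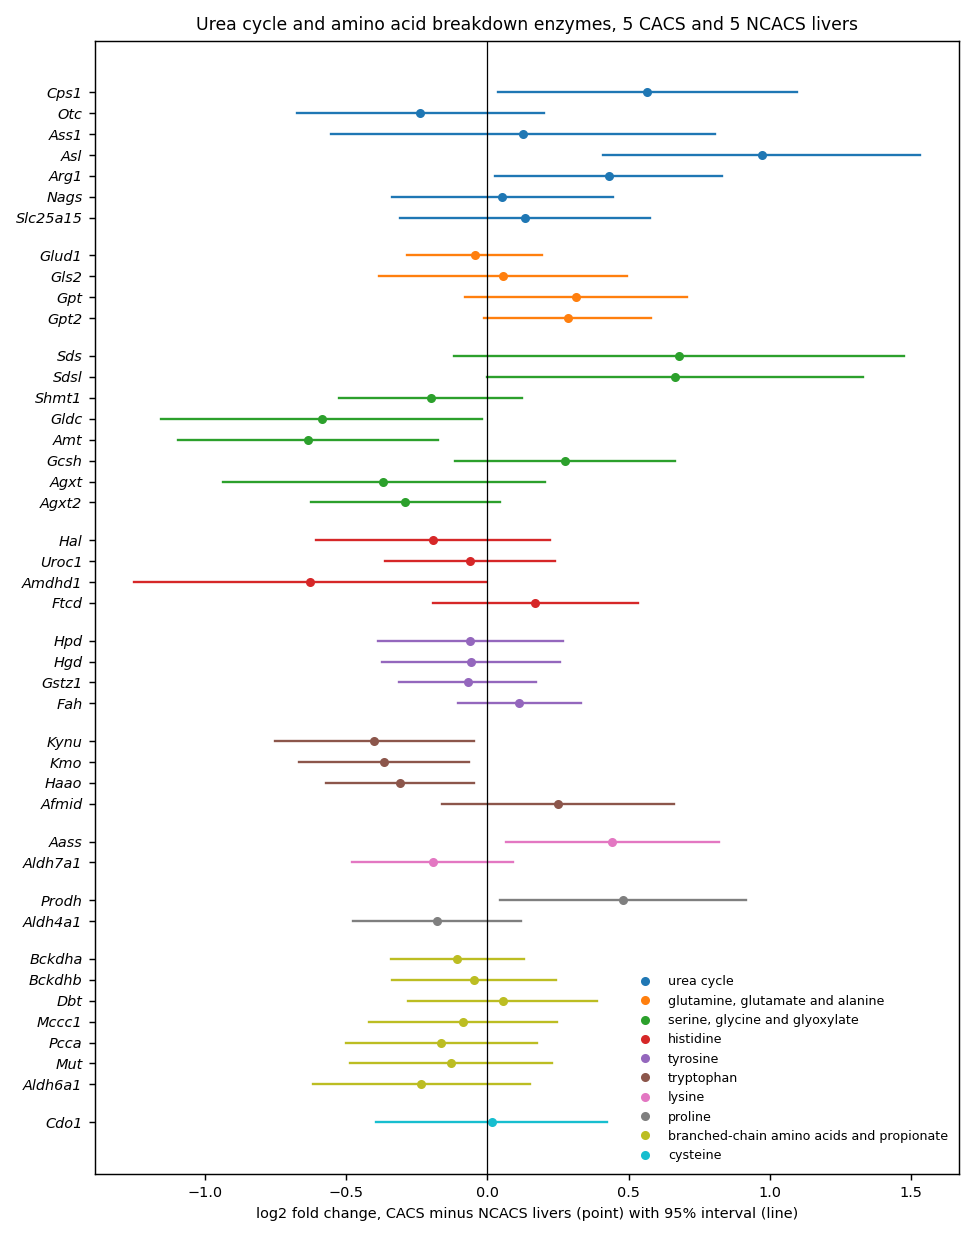
Log2 fold change of each of the 43 members (horizontal axis, CACS minus NCACS livers) with its 95% interval from edgeR, with the genes on the vertical axis ordered and coloured by amino acid group. Points lie between -0.64 for Amt and 0.97 for Asl, and most intervals cross the line at 0.

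The 7 genes of the urea cycle and its supply had mostly higher means in CACS than in NCACS livers, and the argininosuccinate lyase gene Asl was the member that differed most. The log2 fold change was above 0 for 6 of the 7 genes with a median of 0.13. Of the 7, 3 had an unadjusted p-value under 0.05, all higher in CACS livers, beside 21.6% of all genes tested in either direction and 11.3% as higher. None of the 7 passed the adjusted threshold. Asl (ENSMUSG00000025533, chr5:130011258-130029247, minus strand, GRCm38), which splits argininosuccinate into arginine and fumarate, was measured at 566, 403, 400, 417 and 308 CPM in NCACS livers 11 to 15 and at 934, 574, 620, 596 and 1377 CPM in CACS livers 16 to 20. Every CACS liver was above every NCACS liver, and the groups were separated by a narrow gap between CACS 17 and NCACS 11. Asl was the 1 member of 43 whose groups did not overlap, while 7.07% of all genes tested did not overlap and 3.95% did so with CACS higher. No member was without overlap in the other direction, against 3.13% of all genes tested. The log2 fold change was 0.97 (95% interval 0.41 to 1.53, a 1.96-fold difference) with an adjusted p-value of 0.0581, just outside the threshold of 0.05. Its adjusted p-value was 0.00449 with DESeq2 and 0.0486 without CACS 17, within a range of 0.00449 to 0.111 over the alternatives, and without CACS 20 the log2 fold change was 0.70.

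Cps1, carbamoyl phosphate synthetase, the entry of ammonia into the cycle, overlapped between the groups through a single liver. Its levels were 3336, 2415, 2656, 3305 and 1630 CPM in NCACS livers 11 to 15 and 4671, 4101, 2332, 3621 and 5034 CPM in CACS livers 16 to 20. CACS 18, the mouse with the greatest weight loss, was below 4 of the 5 NCACS livers, and the other CACS livers were above all of them. The log2 fold change was 0.57 (95% interval 0.04 to 1.10, adjusted p = 0.201 by edgeR). Arg1, the arginase that releases urea, was measured at 1559, 1140, 1131, 1518 and 872 CPM in NCACS livers and 1672, 1755, 1243, 1706 and 1999 CPM in CACS livers, in the order of their numbers. Here too CACS 18 alone lay inside the NCACS range, and the log2 fold change was 0.43 (95% interval 0.03 to 0.83, adjusted p = 0.202 by edgeR).

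The other genes of the cycle overlapped widely. Ass1, argininosuccinate synthase, which joins citrulline and aspartate, spanned 994 to 2341 CPM (NCACS) and 809 to 2516 CPM (CACS), with a log2 fold change of 0.13 that became -0.09 without CACS 20. Otc, the ornithine transcarbamylase of the mitochondrion, was the 1 gene of the group below 0, at 436 ± 123 CPM (NCACS) and 370 ± 70.5 CPM (CACS) (SD, n = 5), with a log2 fold change of -0.24 (95% interval -0.67 to 0.20). Nags, which makes the N-acetylglutamate that activates Cps1, overlapped between the groups, at 70.7 ± 14.1 and 73.4 ± 18.9 CPM (SD, n = 5). Its log2 fold change of 0.05 ranged from -0.10 to 0.17 when each liver was left out in turn. Slc25a15, the ornithine carrier of the inner mitochondrial membrane, gave 0.13, and -0.05 without CACS 17, which held its highest level of 508 CPM. The share of all reads taken by the 7 genes overlapped between groups, at 0.47 to 0.88% in NCACS and 0.55 to 1.15% in CACS livers.

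**Figure D2:**
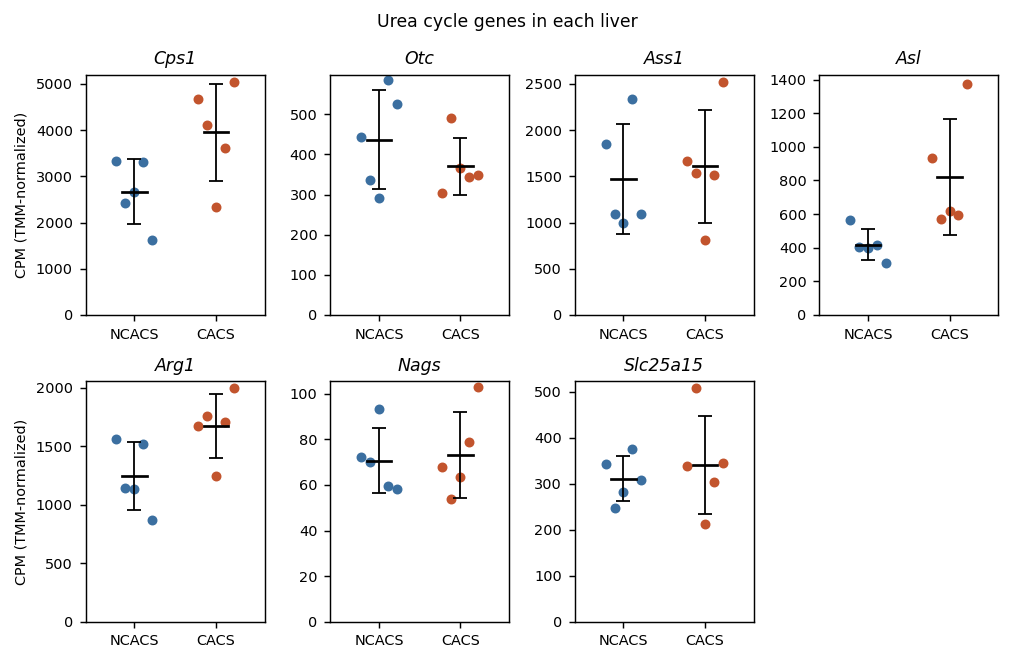
Level of each urea cycle gene in each liver (points, TMM-normalized CPM on the vertical axis, starting at 0) for 5 NCACS and 5 CACS livers, with the mean (wide line) and SD (bars). Only the Asl panel shows all 5 CACS livers above all 5 NCACS livers, and in the Cps1 and Arg1 panels 1 CACS liver lies among the NCACS values.

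The 4 enzymes that gather amino groups from glutamine, glutamate and alanine had log2 fold changes between -0.05 and 0.31, and none had an unadjusted p-value under 0.05. Gpt and Gpt2, the cytosolic and mitochondrial alanine transaminases that turn alanine into pyruvate, had log2 fold changes of 0.31 (95% interval -0.08 to 0.71) and 0.28 (-0.01 to 0.58), both with overlapping groups. Gpt was measured at 363, 320, 294, 310 and 182 CPM in NCACS and at 383, 334, 291, 364 and 455 CPM in CACS livers, in the order of their numbers. The remaining 2 genes, for glutamate dehydrogenase and liver glutaminase, gave -0.05 and 0.06, and glutamate dehydrogenase had one of the tightest intervals of the list, -0.28 to 0.19.

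Of the 8 members that handle serine, glycine and glyoxylate, 3 had a log2 fold change above and 5 below 0. Of these 8, 2 (25%) had an unadjusted p-value under 0.05, beside 21.6% of all genes tested. Both are parts of the glycine cleavage system, the mitochondrial complex that splits glycine into carbon dioxide, ammonia and a methylene group. Amt, its aminomethyltransferase, was measured at 64.6, 48.5, 72.5, 73.2 and 89.2 CPM in NCACS livers 11 to 15 and at 37.3, 67.2, 50.5, 36.5 and 32.4 CPM in CACS livers 16 to 20. The groups overlapped through CACS 17, which lay within the NCACS range, and CACS 18, which lay just above NCACS 12. The log2 fold change of -0.64 (95% interval -1.10 to -0.18) had an adjusted p-value of 0.111 with edgeR, and over the alternatives the adjusted p-value ranged from 0.0379, without CACS 17, to 0.216, without CACS 20, with 0.04 in DESeq2. Gldc, the glycine decarboxylase of the same complex, was at 156, 118, 152, 208 and 293 CPM in NCACS and at 118, 183, 109, 78.4 and 130 CPM in CACS livers. Its log2 fold change was -0.59 (95% interval -1.15 to -0.02, adjusted p = 0.217 by edgeR). The third member of the complex on the list, Gcsh, the lipoyl carrier protein, had a log2 fold change of 0.27 with an interval from -0.12 to 0.66, so that the direction of its estimate differed from that of its partners. The serine dehydratase genes Sds and Sdsl, which make pyruvate from serine, had log2 fold changes of 0.68 and 0.66 with wide intervals that reached -0.12 and just below 0. Gcsh, Sds and Sdsl were singled out after their values were seen. The other 3 members, for serine hydroxymethyltransferase and the glyoxylate transaminases, lay between -0.37 and -0.20.

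Of the 4 enzymes of histidine breakdown, the imidazolonepropionase Amdhd1 had the largest estimate of its group at -0.63 (95% interval -1.25 to -0.01, adjusted p = 0.227 by edgeR). Its levels were 203, 160, 121, 311 and 225 CPM in NCACS and 91.8, 224, 96.3, 117 and 131 CPM in CACS livers, and CACS 17 and CACS 20 lay inside the NCACS range. Hal, the histidine ammonia-lyase that starts the pathway, was at 341 ± 78.7 CPM (NCACS) and 298 ± 72.8 CPM (CACS) (SD, n = 5), a log2 fold change of -0.19. The other 2 genes of the pathway were at -0.06 and 0.17.

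The 4 enzymes of tyrosine breakdown had log2 fold changes in a narrow range, from -0.07 to 0.11. Fah, fumarylacetoacetase, the last step, was at 776 ± 55.0 CPM (NCACS) and 840 ± 36.3 CPM (CACS) (SD, n = 5), with a log2 fold change of 0.11 (95% interval -0.11 to 0.33). Gstz1, maleylacetoacetate isomerase, was at 917 ± 103 and 874 ± 32.0 CPM (SD, n = 5), with a log2 fold change of -0.07 (95% interval -0.31 to 0.17). A difference above 0.5 on the log2 scale in either gene lay outside these intervals.

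The kynurenine pathway carries tryptophan towards alanine, acetyl-CoA and NAD. Of its 4 members here, 3 had an unadjusted p-value under 0.05, all 3 with lower levels in CACS livers. Of all genes tested, 21.6% reached this in either direction and 10.3% as lower. None of the 4 passed the adjusted threshold. Kmo, kynurenine 3-monooxygenase, was measured at 262, 232, 224, 283 and 319 CPM in NCACS livers 11 to 15 and at 209, 260, 193, 169 and 193 CPM in CACS livers 16 to 20. CACS 17 was again the liver inside the NCACS range, and the other 4 were below all NCACS livers, with a log2 fold change of -0.37 (95% interval -0.67 to -0.07, adjusted p = 0.149 by edgeR). Haao, which acts 2 steps further on as 3-hydroxyanthranilate dioxygenase, was at 610, 511, 530, 558 and 465 CPM in NCACS and 388, 404, 388, 508 and 470 CPM in CACS livers. Here the overlap came from CACS 19 and CACS 20, which were above NCACS 15, and the log2 fold change was -0.31 (95% interval -0.57 to -0.05, adjusted p = 0.158 by edgeR). Kynu, kynureninase, which stands between them and was singled out after its values were seen, was at -0.40 (95% interval -0.75 to -0.05). The fourth gene, Afmid, the formamidase upstream of them, was at 0.25, and 1566 bases of its exons are shared with the same-strand gene Gm20708, so its count depends on how ambiguous reads were handled.

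The lysine and proline groups each hold the entry enzyme and a dehydrogenase of the same route, and in both the entry enzyme had the higher estimate. Aass, the aminoadipate semialdehyde synthase that begins lysine breakdown, was at 319, 224, 226, 329 and 285 CPM in NCACS livers 11 to 15 and at 461, 405, 284, 296 and 433 CPM in CACS livers 16 to 20. Of the CACS livers, 16, 17 and 20 were above all NCACS livers, and the log2 fold change was 0.44 (95% interval 0.06 to 0.82, adjusted p = 0.164 by edgeR). Aldh7a1, the next dehydrogenase of that route, gave -0.19 (95% interval -0.48 to 0.09). Prodh, proline dehydrogenase, was at 256, 221, 189, 212 and 181 CPM in NCACS and at 337, 184, 228, 316 and 411 CPM in CACS livers. Of the CACS livers, 16, 19 and 20 were above all NCACS livers, and CACS 17 was near the lowest of them, with a log2 fold change of 0.48 (95% interval 0.04 to 0.92, adjusted p = 0.19 by edgeR). Aldh4a1, which makes glutamate from the product of Prodh, was at -0.18 (95% interval -0.48 to 0.12), and 1595 bases of its exons are shared with the same-strand gene Gm21969.

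**Figure D3:**
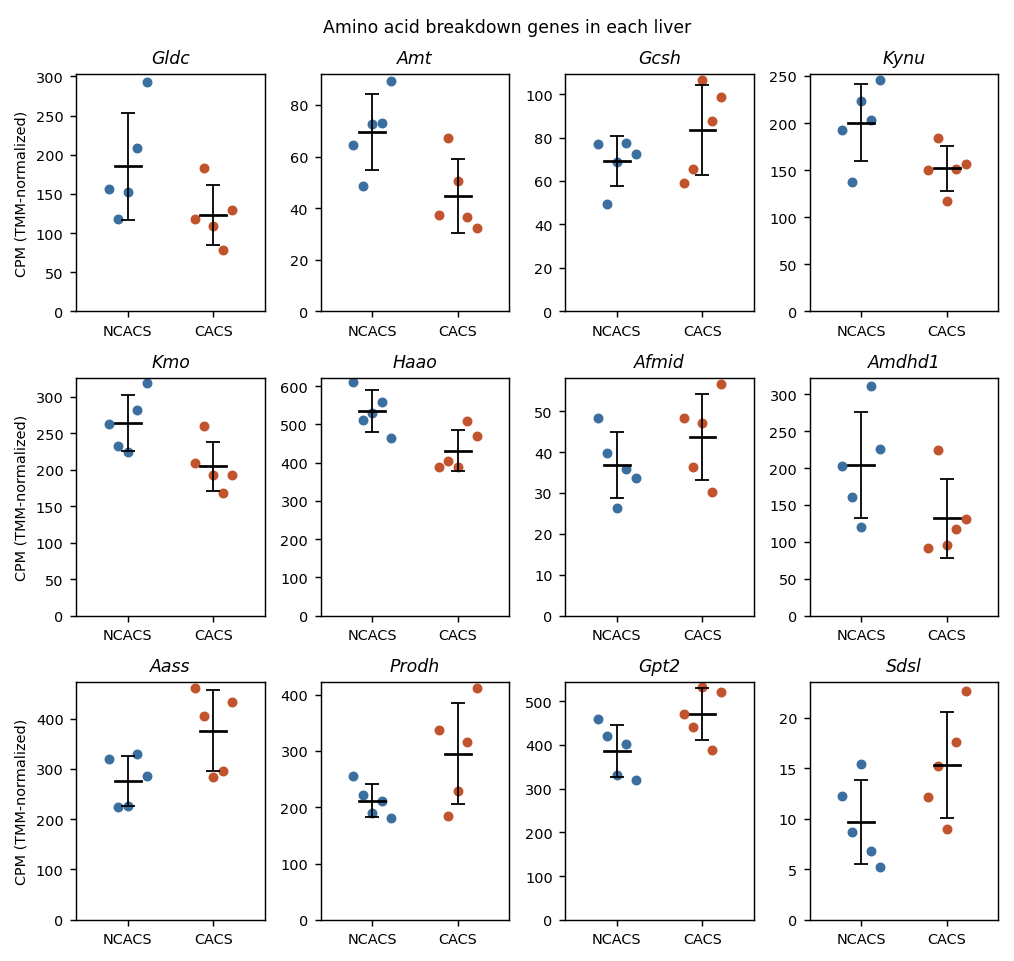
Level of 12 amino acid breakdown genes in each liver (points, TMM-normalized CPM on the vertical axis, starting at 0), with the mean (wide line) and SD (bars) of 5 NCACS and 5 CACS livers. Gldc, Amt, Kynu, Kmo, Haao and Amdhd1 have lower means in CACS livers and Aass, Prodh, Gpt2 and Sdsl higher means, and the points of the groups overlap in all 12 panels.

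The 7 genes that take apart the branched-chain amino acids and their propionyl-CoA had log2 fold changes between -0.23 and 0.05, 6 of them below 0, and none had an unadjusted p-value under 0.05. The lowest was Aldh6a1, methylmalonate semialdehyde dehydrogenase of the valine route, at 377 ± 92.3 CPM (NCACS) and 320 ± 45.9 CPM (CACS) (SD, n = 5), with a 95% interval of -0.62 to 0.15. Pcca, a subunit of propionyl-CoA carboxylase, gave -0.16 (95% interval -0.50 to 0.17). Counts of the E1 alpha subunit gene of the branched-chain dehydrogenase are less certain, since 1171 of its 1899 exon bases lie opposite B3gnt8 and the strand setting of the counting is not given in the sources used here. Cdo1, cysteine dioxygenase, which commits cysteine to taurine and sulfate, was at 1732 ± 474 CPM (NCACS) and 1750 ± 217 CPM (CACS) (SD, n = 5), a log2 fold change of 0.02 (95% interval -0.39 to 0.42).

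Levels between members were compared only as CPM per kilobase of exon. The length counts every exon base annotated for the gene, not that of the transcript expressed, so the order of genes depends on the annotation. On that scale Cdo1 stood at the top in CACS livers with 1065, followed by the tyrosine enzyme Hpd with 909, Arg1 with 752, Cps1 with 711 and Ass1 with 666 CPM per kilobase. In NCACS livers the first 4 were Cdo1 with 1054, Hpd with 948, Ass1 with 610 and Arg1 with 559 CPM per kilobase, and Cps1 followed with 480. Within livers, Arg1 was above Cps1 in 5 of 5 NCACS and 3 of 5 CACS livers, and Ass1 was above Arg1 in 3 of 5 NCACS and 1 of 5 CACS livers. Cdo1 was above Hpd in 3 of 5 NCACS and 5 of 5 CACS livers, and both were above Arg1 in all 10 livers.

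The 43 genes together took 1.77 to 2.54% of the counts in NCACS livers and 1.79 to 2.66% in CACS livers, which overlap almost fully. Livers of a group differed from each other across many members at once. Among NCACS livers, 14 held the highest level of 18 members and 11 that of 16, while 12, 13 and 15 held the lowest level of 15, 14 and 14 members. Among CACS livers, 17 and 20 each held the highest level of 16 members, and 18 and 19 held the lowest of 15 and 13. NCACS 14 and 11 are the mice with the smallest weight changes of their group (-3 and -4%), and CACS 17 and 20 those with the smallest of theirs (-29% each). The order did not hold throughout, since CACS 19, at -30%, held the lowest level of 13 members and CACS 16, at -32%, that of 6.

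**Figure D4:**
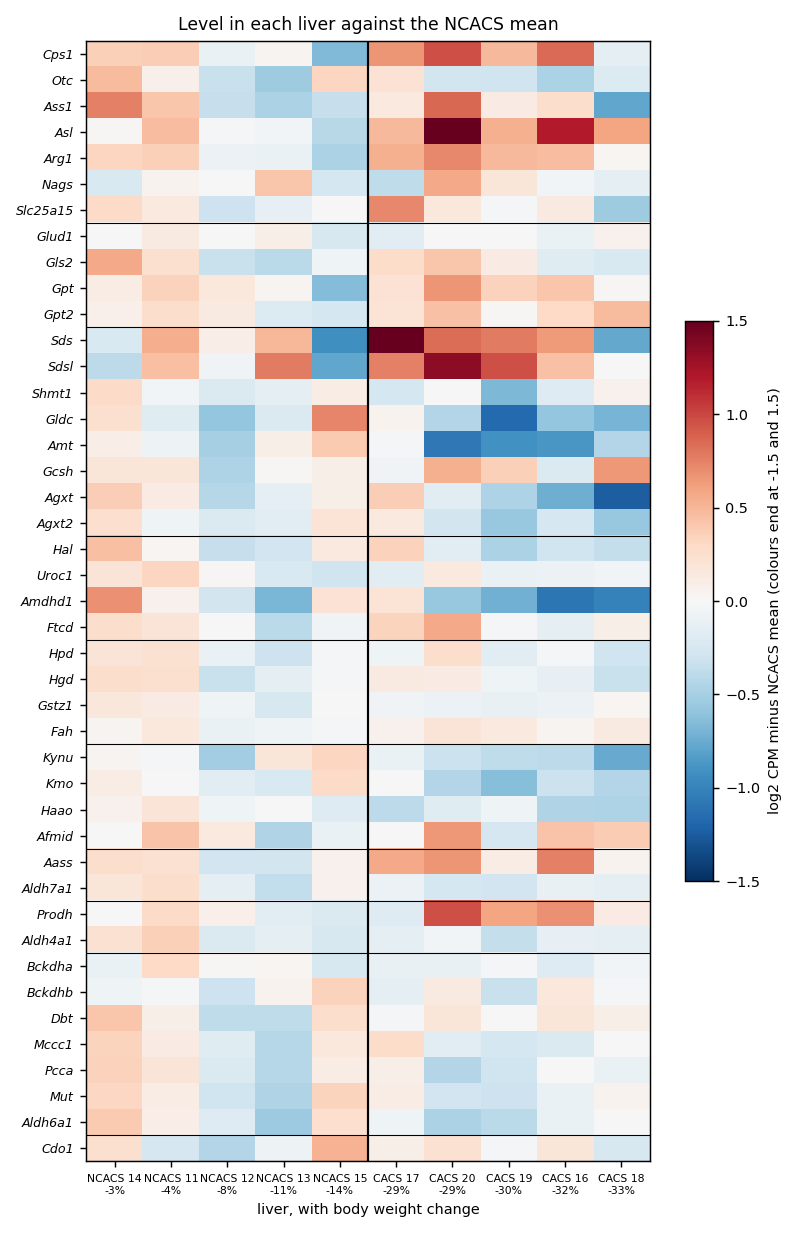
Level of each member (rows, grouped by amino acid) in each liver (columns, ordered by body weight change from -3 to -33%), as log2 CPM minus the mean of the NCACS livers, with red above and blue below that mean. Asl is red in all 5 CACS columns, and within the NCACS block the columns of -3 and -4% are mostly redder than those of -8 and -11%. The column of -14% (NCACS 15) is mixed, with the lowest NCACS level of 14 members and the highest of 7.

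Because the groups were defined by weight loss, the relation to weight change was read within groups only, with group as a term of the edgeR fit. A positive slope means a higher level in the mouse that had lost less. The slope was positive for 37 of the 43 members, and for 51.6% of all genes tested. No member passed the adjusted threshold (0.0141% of all genes tested did), and the smallest adjusted p-value of a member was 0.242 in edgeR's test. An unadjusted p-value under 0.05 was found for 8 of 43 members (18.6%), against 7.62% of all genes tested. All 8 slopes were positive, whereas 3.45% of all genes reached this with a positive and 4.17% with a negative slope. They were, in order of the p-value, Arg1, Ass1, Gls2, Uroc1, Cps1, Gpt, Aldh4a1 and Ftcd, of which Gls2 (liver glutaminase), Uroc1 (urocanase) and Ftcd (the last enzyme of histidine breakdown) are named after their values were seen. The slope was 0.08 log2 units per percentage point of weight for Arg1, 0.12 for Ass1 and 0.09 for Cps1. Of the 8, 3 are urea cycle enzymes. Weight change spanned 11 percentage points in the NCACS group and only 4 in the CACS group, so the slopes rest largely on the NCACS livers, and without NCACS 14 the number of positive slopes was 31 of 43 and that of unadjusted p-values under 0.05 was 6. Without NCACS 15 these numbers were 39 and 13, and without NCACS 11 they were 35 and 5. Of all genes tested, 7.47% had an unadjusted p-value under 0.05 without NCACS 14, 9.35% without NCACS 15 and 5.92% without NCACS 11. Positive slopes made up 50.1, 51.9 and 51.4% of all genes tested in these fits. Albumin transcripts took 8.08% and 8.51% of counts in NCACS livers 14 and 11. They took 5.09% and 4.49% in livers 13 and 15, each with the lowest NCACS level of 14 members. Liver 12, which held the lowest NCACS level of 15 members, had 8.05%. The part of the albumin differences in the slopes was not tested.

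**Figure D5:**
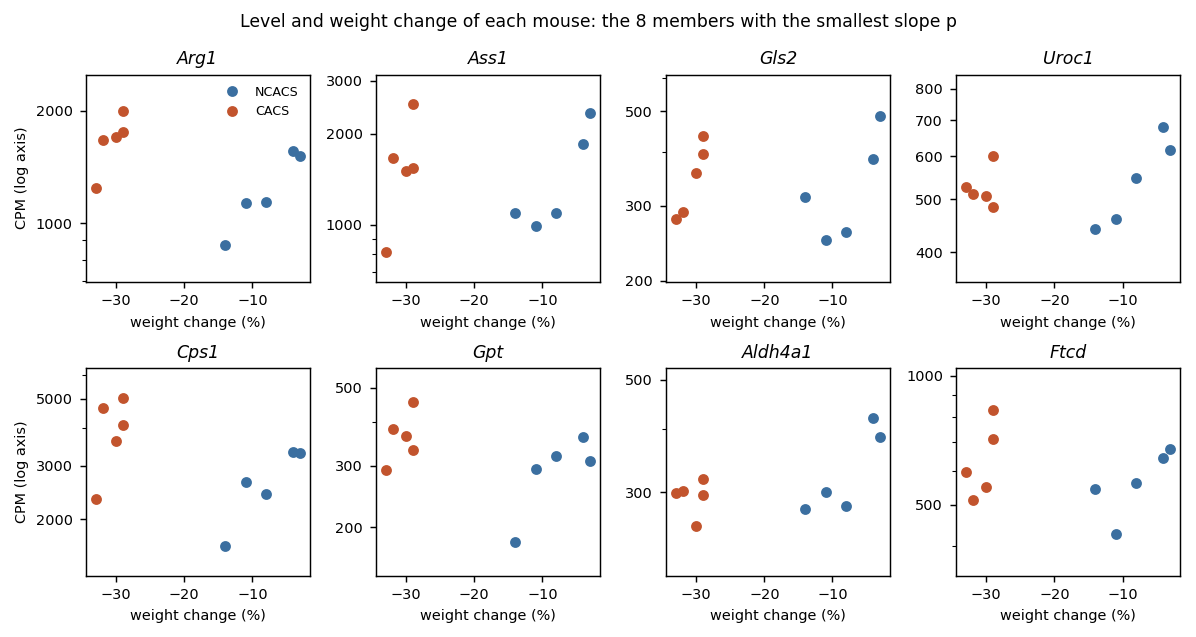
Level (vertical log axis, CPM) against body weight change (horizontal axis, %) for the 8 members with the smallest p-value of the within-group slope, with 1 point per mouse and the groups in 2 colours. In the NCACS group the mice at -3 and -4% lie above those at -11 and -14% in all 8 panels, while the CACS mice cover only -29 to -33%.

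Other genes of the same pathways were read from the same fit. Of 50 such genes listed, 46 were tested, and 18 had a log2 fold change above and 28 below 0, with a median of -0.09. An unadjusted p-value under 0.05 was found for 9 of 46 (19.6%), beside 21.6% of all genes tested. The adjusted threshold was passed by 1 of the 46, against 3.8% of all genes tested. That gene was Mmab, the adenosyltransferase that makes the cobalamin cofactor of methylmalonyl-CoA mutase, the enzyme encoded by Mut. Mmab was at 45.2, 37.7, 53.6, 39.7 and 42.4 CPM in NCACS livers 11 to 15 and at 18.2, 23.4, 19.2, 19.8 and 28.7 CPM in CACS livers 16 to 20. Every CACS liver was below every NCACS liver, and Mmab fell by 0.999 on the log2 scale (95% interval -1.31 to -0.69, adjusted p = 0.00752 by edgeR), with adjusted p-values from 7.94e-08 to 0.0255 over all alternatives. Mut itself overlapped between groups, at 169 ± 40.0 CPM (NCACS) and 155 ± 20.7 CPM (CACS) (SD, n = 5), with a log2 fold change of -0.13 (95% interval -0.49 to 0.23). DESeq2 called 5 of the 46 genes, against 9.8% of all genes tested.

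Of 16 regulators of amino acid breakdown genes, 2 passed the threshold, both higher in CACS livers, against 3.8% of all genes tested in either direction and 1.89% as higher. Foxo1, the forkhead factor that insulin signalling keeps out of the nucleus, was at 40.7, 39.5, 25.6, 39.1 and 36.9 CPM in NCACS and at 58.3, 61.9, 52.5, 48.0 and 49.2 CPM in CACS livers, and rose by 0.57 on the log2 scale (95% interval 0.28 to 0.85, adjusted p = 0.0375 by edgeR). Hnf4a, the nuclear receptor that maintains hepatocyte genes, many urea cycle genes among them, was at 632, 636, 636, 568 and 688 CPM in NCACS and at 908, 826, 729, 1007 and 988 CPM in CACS livers, and rose by 0.50 (95% interval 0.24 to 0.76, adjusted p = 0.0435 by edgeR). The groups did not overlap for either gene. With 1 liver left out, the adjusted p-value by edgeR was 0.0395 to 0.0784 for Foxo1 and 0.0417 to 0.0974 for Hnf4a. In these fits Foxo1 stayed past the threshold only without NCACS 13 and Hnf4a only without CACS 18. Each of these fits also called fewer of all genes tested than the fit with all livers. Hnf4a is also 1 of the 10 hepatocyte markers, and the other 9 did not pass the threshold.

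The promoters of members were read from RefSeq (GRCm38.p6) as windows of 300 bases, 250 before and 50 after the start of a transcript. The table held 37 windows for 31 of the 43 members. Asl, Cps1, Arg1, Aldh7a1, Cdo1, Dbt, Gls2, Gpt, Kynu, Mut, Sds and Sdsl had no entry. The windows of the 5 members with an entry and the smallest unadjusted p-values are shown 5′ to 3′ on the gene's strand, since they hold genes estimated as lower and as higher in CACS livers, with matches to the motifs searched in capitals. Amt is at chr9:108296655-108296954 (plus strand), Kmo at chr1:175631943-175632242 (plus), Haao at chr17:83846741-83847040 (minus), Aass at chr6:23132937-23133236 (minus) and Prodh at chr16:18089141-18089440 (minus). The capitals mark AGGTCA on the other strand (TGACCT) in Amt, Haao and Aass and TTCNNNGAA in Prodh, and Kmo held none of the motifs. The windows of Kmo, Haao and Prodh lie inside the gene as GENCODE M21 draws it, which begins further upstream.
Amt: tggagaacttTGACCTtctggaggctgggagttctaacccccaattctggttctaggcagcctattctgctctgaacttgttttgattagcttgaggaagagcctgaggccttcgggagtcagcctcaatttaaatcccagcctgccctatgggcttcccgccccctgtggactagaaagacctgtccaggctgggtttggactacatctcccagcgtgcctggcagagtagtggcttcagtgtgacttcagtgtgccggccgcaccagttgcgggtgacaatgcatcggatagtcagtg
Kmo: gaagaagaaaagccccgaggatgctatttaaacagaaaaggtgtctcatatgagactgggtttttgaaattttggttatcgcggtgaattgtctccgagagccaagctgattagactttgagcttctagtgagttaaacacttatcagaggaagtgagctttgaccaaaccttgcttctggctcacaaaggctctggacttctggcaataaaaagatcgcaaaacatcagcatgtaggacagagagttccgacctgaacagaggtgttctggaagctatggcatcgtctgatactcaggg
Haao: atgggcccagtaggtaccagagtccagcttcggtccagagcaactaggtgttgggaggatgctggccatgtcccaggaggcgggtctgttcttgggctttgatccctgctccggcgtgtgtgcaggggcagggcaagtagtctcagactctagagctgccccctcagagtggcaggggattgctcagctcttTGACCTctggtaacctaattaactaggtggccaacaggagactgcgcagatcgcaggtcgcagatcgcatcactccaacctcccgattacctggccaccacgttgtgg
Aass: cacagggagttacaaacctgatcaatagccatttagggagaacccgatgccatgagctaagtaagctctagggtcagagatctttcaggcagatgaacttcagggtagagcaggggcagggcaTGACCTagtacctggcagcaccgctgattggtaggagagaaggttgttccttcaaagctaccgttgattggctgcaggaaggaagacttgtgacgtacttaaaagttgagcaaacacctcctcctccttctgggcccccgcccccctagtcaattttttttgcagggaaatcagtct
Prodh: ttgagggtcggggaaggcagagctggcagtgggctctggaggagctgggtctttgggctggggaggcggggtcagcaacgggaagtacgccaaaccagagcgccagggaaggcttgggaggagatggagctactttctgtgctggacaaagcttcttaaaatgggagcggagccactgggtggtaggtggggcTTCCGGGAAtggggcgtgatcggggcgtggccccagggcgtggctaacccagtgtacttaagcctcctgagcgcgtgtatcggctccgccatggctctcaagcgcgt
The motifs searched on both strands were TTCNNNGAA, which STAT factors recognise, GTAAACA, which FOXO factors recognise, and AGGTCA, the half-site of nuclear receptors such as the product of Hnf4a. TTCNNNGAA was in 1 of the 37 windows (2.7%), that of Prodh, and in 8.3% of all 32851 windows. GTAAACA was in 0 of the 37 windows and in 3.65% of all. AGGTCA was in 12 of the 37 windows (32.4%), belonging to 10 members, and in 16.3% of all. Among the 5 genes shown, AGGTCA stood in genes with lower (Amt, Haao) and with higher (Aass) estimates in CACS livers. A match of letters is a description and not a bound site, and the motifs were chosen after earlier results of these data were known.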

How the data were processed

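Liver RNA was measured in 5 NCACS and 5 CACS mice, all male. The authors made TruSeq Stranded mRNA libraries, sequenced single-end reads, aligned them to GRCm38 with STAR 2.4.1d, counted them with HTSeq 0.6.1, per the submitters' processing notes, and deposited raw counts per Ensembl gene without normalization. The annotation release and strand setting are not given in the sources used here, so overlapping and antisense genes are uncertain. Groups, mouse numbers and weight changes came from the labels, which name no batch. All columns of the table were used. The full genotype of the model is not reported here.

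GENCODE M21 gave gene symbols and coordinates and held 42462 of the 43629 identifiers. The deposited counts entered edgeR 4.0.16 (R 4.3.3): filterByExpr removed low genes, TMM scaled the libraries, and the quasi-likelihood test gave p-values that were adjusted by Benjamini-Hochberg across the 14143 genes left, with a threshold of 0.05. CPM are TMM-normalized, and log2 CPM used a prior count of 2. Weight change, centred within each group, was tested in the same way with group as a term. Within a group, any pair of livers differed with a chi-square of at least 46.1 per degree of freedom, so no library duplicated another of its group. Pairs across the groups were not compared in this way. The scripts were tested on simulated data. Each number names 1 mouse, and p-values measure the spread between these mice.

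Members and lists were chosen with earlier results of these data known. The genes named were all 7 urea cycle members, the 2 members with the smallest p-value in each amino acid group, members called or without overlap, and called genes of the other lists. Others are said to have been named after their values were seen, except those named as called under an alternative, for their level per kilobase or as partners of a named gene. The alternatives were RLE factors, library totals, DESeq2 1.42.0, limma-voom (limma 3.58.1), no filter, at least 10 counts in every liver and leaving out each liver. Counts of members with an unadjusted p-value under 0.05 and of positive slopes were compared across alternatives by a choice made after seeing the data. Promoter windows came from RefSeq.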

Additional observations from a re-analysis of the deposited data

Results flagged for a closer look

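Single livers that stood apart from their group were looked for in 120 combinations of a group and a member, another named gene or a clock gene (the clock genes added after their values were seen), by Dixon's ratio of the gap to the range (critical value 0.71 for 5 livers), which chance exceeds in about 1 of 20 groups. It was exceeded in 5. Gcsh was at 49.4 CPM in NCACS 12, with the nearest other NCACS liver at 68.8 CPM (ratio 0.732). Foxo1 was at 25.6 CPM in NCACS 13, with the nearest other NCACS liver at 36.9 CPM (ratio 0.792), and without NCACS 13 its log2 fold change was 0.47 with an adjusted p-value of 0.0395 by edgeR. The other 3 were clock genes that were low in NCACS 15. Dbp was at 1.27 CPM there, with the nearest other NCACS liver at 52.1 CPM (ratio 0.888). Per3 was at 2.5 CPM, with the nearest at 36.5 CPM (ratio 0.759), and Bhlhe41 was at 0.309 CPM, with the nearest at 4.4 CPM (ratio 0.776).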

How the results depend on the processing

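The groups hold different mice, NCACS 11 to 15 and CACS 16 to 20. The labels match no mouse of one group with a mouse of the other, so no paired analysis was made. The number of genes called, 538 in edgeR's test, was 1386 with DESeq2 (672 higher and 714 lower), and the number called higher was 173 with no filter. When each liver was left out in turn, 178 to 519 genes were called, 79 to 246 higher and 96 to 273 lower. Members called numbered 2 with DESeq2 (1 higher and 1 lower) and 0 to 2 when each liver was left out, the 2 being Asl and Amt without CACS 17. Other pathway genes called numbered 5 with DESeq2 and 1 to 2 when each liver was left out. Members without overlap numbered 1 to 4 when each liver was left out: Kynu joined Asl without NCACS 12, Haao without NCACS 15, Kmo and Agxt2 without CACS 17, and Arg1, Cps1 and Sds without CACS 18. With 1 liver left out, 8.39 to 9.99% of all genes tested did not overlap, above the 7.07% with all livers. Members called for weight change stayed at 0 in the alternatives run for it, RLE factors and leaving out each liver. Members with an unadjusted p-value under 0.05 numbered 4 without NCACS 15 (20.2% of all genes tested) and 5 without CACS 16 (20.2%). They numbered 5 without CACS 20 (18.1% of all genes tested) and 7 without CACS 19 (18.8%). The log2 fold change changed sign when single livers were left out for Ass1 (-0.0924 to 0.36), Nags (-0.0993 to 0.17), Slc25a15 (-0.0516 to 0.26) and Cdo1 (-0.0842 to 0.17), and the cause was not tested. The other 23 of the 27 genes named by rule kept their direction under every alternative. Of all 43 members, 10 changed sign when 1 liver was left out, among them Gls2 (-0.04 to 0.22) and Uroc1 (-0.13 to 0.03). Foxo1 missed the threshold with library totals (adjusted p = 0.0531 by edgeR) and Hnf4a with no filter (adjusted p = 0.0763 by edgeR). Every member had at least 169 reads in each liver, where counting error is small beside the spread between mice, and with 5 livers per group the intervals of 26 members reach beyond 0.5 on the log2 scale.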

Other observations

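Genes around the lobule were read from the same fit, since many of the breakdown enzymes are densest near the portal vein. Of 10 periportal genes, Arg1, Ass1, Cps1, Gls2, Hal and Sds are also members. A log2 fold change above 0 was found for 7 of the 10, and none passed the adjusted threshold in edgeR's test, against 3.8% of all genes tested. An unadjusted p-value under 0.05 was found for 3, the members Arg1 and Cps1 among them. All 3 were higher in CACS livers, against 11.3% of all genes tested. The summed level of the 10 periportal genes was 7387 to 11160 CPM (NCACS) and 8634 to 15010 CPM (CACS). Of 10 pericentral genes, 8 were below 0, and 3 had an unadjusted p-value under 0.05, all lower in CACS livers, against 10.3% of all genes tested. The adjusted threshold was passed by 1 of the 10, against 3.8% of all genes tested in either direction and 1.92% as lower. That gene was Lgr5, a receptor of the Wnt pathway, which fell from 7.12 ± 1.02 to 4.13 ± 1.03 CPM (SD, n = 5), by 0.79 on the log2 scale (adjusted p = 0.0408 by edgeR). The summed level of the 10 pericentral genes was 8360 to 12030 CPM (NCACS) and 10950 to 13440 CPM (CACS). Cyp2e1, which is the most abundant of them, was at 6235 to 8866 CPM (NCACS) and 8955 to 11050 CPM (CACS), and the other 9 summed to 2125 to 3235 CPM (NCACS) and 1908 to 2387 CPM (CACS).

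Of 14 clock genes, 5 had an unadjusted p-value under 0.05 (35.7%), beside 21.6% of all genes tested, and none passed the adjusted threshold in edgeR's test. Per1, Per2 and Cry1 were higher and Nr1d1 and Npas2 lower in CACS livers, all named after their values were seen. NCACS 15 stood apart in several clock genes. For Nr1d1 it was at 38.0 CPM, the other NCACS livers at 118.5 to 200.5 CPM and the CACS livers at 14.3 to 72.3 CPM. The time of day of each dissection is not given in the sources used here. Mitochondrially encoded transcripts took 3.96 to 5.57% of counts in NCACS livers and 2.72 to 3.95% in CACS livers. The ranges almost touched, at 3.959% in NCACS 12 and 3.95% in CACS 16. Sftpa1, a surfactant gene of lung epithelium, was at 1.41 ± 0.106 CPM (NCACS) and 3.42 ± 1.47 CPM (CACS) (SD, n = 5), levels of a few CPM. It was the 1 of 4 tested lung markers to pass the threshold (adjusted p = 0.0323 by edgeR), against 3.8% of all genes tested. The other tested markers overlapped between groups, with log2 fold changes of 0.44 for Sftpc, 0.81 for Ager and -0.97 for Scgb1a1. Sftpb and Nkx2-1 did not pass the filter on low counts.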
